A study of Mus musculus with 2 samples.

Results

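The cells described here are the differentiated urothelial organoid cells in which no early-response transcript was counted. They were selected on measured values: of the 4896 cells kept in the differentiated library, 1018 held 0 unique molecular identifiers (UMIs, tags that count each captured RNA molecule once) of Fos, Fosb, Egr1 and Atf3 together. They are 20.8% of the kept differentiated cells (exact binomial 95% interval, 19.7 to 22.0%) and part of the 11714 kept cells of both libraries. They were set against the 1682 kept differentiated cells with at least 5 UMIs of the 4 genes, after matching on total UMIs. This matching evened out total UMIs only. All cells had been dissociated, so the response to dissociation could not be separated from the state of differentiation. The part of each in the differences below was not tested. The other 2196 differentiated cells held 1 to 4 UMIs.

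Both organoid groups were grown in Matrigel from normal urothelium of wild-type C57BL/6 mice aged 8 to 10 weeks. Proliferative organoids (P) were kept in complete medium, and differentiated organoids (D) in a medium without WNT3A, RSPO1, EGF, Noggin and the TGF-β receptor inhibitor LY2157299. All organoids were dissociated enzymatically, and 10000 cells per condition were loaded for droplet-based 3′ single-cell RNA sequencing. Whether animals were pooled is not given in the sources used here. Each condition was 1 library, so the cells are not replicates, no difference carries a test, and every interval given is a 95% interval for counting error only. Kept cells had over 800 detected genes and at most 12% mitochondrial UMIs. The labelled tissue was borne out by its markers, since uroplakins, Krt5 and Krt18 were counted, while endothelial and erythroid markers stayed under 20 UMIs per gene in the matched cells. The luminal keratin Krt20 also stayed under that count. Of the fibroblast and leukocyte markers, Dcn, Laptm5 and Cd68 passed it, with values given below. Of the deposited barcodes, 10 occurred in both libraries, and none of the 1018 cells carried a barcode of a kept P cell.

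Fos and Fosb encode partners of the JUN proteins in the AP-1 transcription factor, Egr1 a zinc-finger transcription factor, and Atf3 a stress-induced member of the ATF family. Their genes are transcribed within minutes of growth factor signalling, mechanical strain or stress, without new protein synthesis, and their messengers are short-lived. The same genes are known to be switched on while tissue is digested into single cells, so that their level in a suspended cell mixes its state in the tissue with its handling. Serum response factor, acting at CArG boxes, and CREB, acting at the cyclic AMP response element (CRE), are textbook activators of this gene class. In the urothelium, basal cells carrying Krt5 lie under intermediate cells and under superficial cells whose apical membrane is built of uroplakins.

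Fos lies on chromosome 12 (GRCm38, GENCODE, 85473890 to 85477273, plus strand), Fosb on chromosome 7 (19302696 to 19310051, minus strand) and Atf3 on chromosome 1 (191170296 to 191218039, minus strand), and all 3 are protein coding. RefSeq promoter windows of 300 bases, 250 before to 50 after the start on GRCm38.p6, were found for 3 of the 4 selecting genes and for 14 of 17 genes of the feedback list used below. They were searched on both strands for the CArG box, the full CRE (TGACGTCA), its shorter core (TGACGT, which also lies inside the full CRE) and the AP-1 site (TGANTCA). The stretches shown are both matches among the selecting genes, and 3 examples from feedback genes that were low in the same cells, all upstream of the start of their own window. The window of Atf3 belongs to a RefSeq start inside the gene span given above. Capitals mark the matched letters, and each stretch reads 5′ to 3′ on the strand of its gene.
Fos, CRE core, chr12:85473812-85473841, plus strand: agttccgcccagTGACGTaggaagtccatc
Atf3, CRE core, chr1:191183334-191183363, minus strand: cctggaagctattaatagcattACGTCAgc
Zfp36, CArG box, chr7:28379267-28379296, minus strand: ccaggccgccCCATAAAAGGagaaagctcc
Dusp1, full CRE, chr17:26508597-26508626, minus strand: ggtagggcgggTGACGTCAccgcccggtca
Btg2, full CRE, chr1:134079303-134079332, minus strand: gttcccaataaTGACGTCAgtgagcgatga
The window of Fosb held none of these letters, and that of Egr1 was not in the table. Of all 32851 mouse windows, 1.63% held a CArG box, 1.79% the full CRE, 7.51% its core and 7.81% an AP-1 site. Of the 14 feedback genes with a window, 2 held a CArG box, 3 the full CRE, 7 its core and 2 an AP-1 site. The window of Myl9, a contractile gene that was high in the selected cells, also held a CArG box. A match describes these letters and does not show a bound site.

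Early-response UMIs were spread over the differentiated cells rather than set apart in a separate group. Next to the 1018 cells with 0 UMIs stood 747 cells with 1 UMI and 537 with 2, and the comparison set began with 337 cells at 5 UMIs, next to 396 cells at 4. The highest cell held 67 UMIs. Selected cells were somewhat shallower than the comparison cells, with medians of 3023.5 and 3973 total UMIs. With the kept cells ranked by total UMIs and divided into 4 equal parts, the share with 0 UMIs was 24.3%, 23.9% and 23.5% in the 3 shallower parts and 11.5% (9.78 to 13.4%) in the deepest. Thinned to 2100 UMIs each, 29.7% of 4417 differentiated cells (28.4 to 31.1%) and 52.2% of 6638 proliferative cells (51.0 to 53.5%) held none. At that depth the differentiated library also held more cells with at least 5 UMIs, 15.3% against 2.47%. Fos was counted at 556 counts per 1000000 UMIs (CPM) in the kept D cells and 203 CPM in the kept P cells. Fosb differed less between the libraries, at 142 and 137 CPM. Egr1 was at 267 and 85.6 CPM, and Atf3 at 74.95 and 15.6 CPM.

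**Figure D1:**
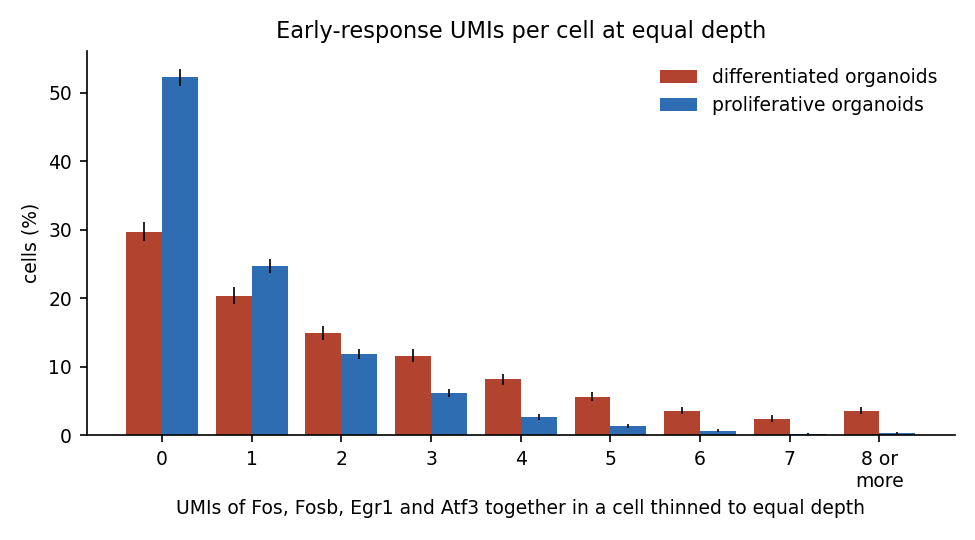
Share of cells (%) by the number of UMIs of Fos, Fosb, Egr1 and Atf3 together, each cell thinned to 2100 UMIs, in differentiated (4417 cells) and proliferative (6638 cells) organoids; error bars are exact binomial 95% intervals. Both libraries fall off without a gap, from 29.7% at 0 in differentiated and 52.2% in proliferative cells, and 3.58% of differentiated cells held 8 or more.

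A count of 0 in a cell of this depth can also arise by sampling. The UMIs of every cell were therefore divided at random into 2 portions, cells were chosen in 1 portion and the genes were read in the other, which the choice had not used. In 503 cells with 0 UMIs in the first portion, the 4 genes were read in the second at 277 CPM (249 to 309 CPM), against 1982 CPM (1904 to 2062 CPM) in 503 depth-matched cells with at least 5, and 1031 CPM over all kept cells. The log2 ratio was -2.84 (-3.00 to -2.67). In the second portion, 58.8% of the chosen cells (54.4 to 63.2%) again held 0 UMIs, as did 3.38% of the comparison cells. Cells with 0 UMIs in the first portion were thus low in these transcripts at a second reading of the same cells, but not free of them. The 1018 selected cells held 0 UMIs in both portions by their choice. The UMIs read in the second portion therefore came from cells outside the 1018. Fos was read at 130 CPM against 1089 CPM, and Atf3, the least abundant, at 17.2 CPM against 171 CPM.

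Matching within bins of total UMIs left 965 cells in each set, with medians of 3092 and 3071 UMIs, 1298 and 1310 genes, and 6.73% and 6.65% mitochondrial UMIs. The matched comparison cells held 7573 UMIs of the 4 selecting genes and the selected cells none, which is the choice itself. Among 8531 other genes with at least 50 UMIs over both sets, 477 (5.59%) were at least 1.5-fold lower in the selected cells and 404 (4.74%) at least 1.5-fold higher, and the median log2 ratio of all was -0.02. The cells were chosen on 4 transcripts of these same libraries, so these counts and the ratios that follow are a description of the chosen cells, with no test.

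The other early-response transcription factors were low together. Of 15 measured members of a list of 19, 14 were below the comparison cells, 11 with intervals wholly below 0, at a median log2 ratio of -1.40. Of the 13 members with at least 50 UMIs, 8 were at least 1.5-fold lower and none higher. Jun, the AP-1 partner of the FOS proteins, stood at 304 CPM in the selected cells and 872 CPM in the comparison cells, a log2 ratio of -1.52 (-1.62 to -1.42). Junb stood at 256 and 715 CPM, and Jund, the least inducible of the 3 Jun genes, at 154 and 312 CPM. A Jun UMI was nevertheless found in 56.1% of the selected cells, against 88.6% of the comparison cells. Nr4a1, an orphan nuclear receptor, ranked lowest among genes reaching 100 UMIs in all, at 8.29 against 48.8 CPM and a log2 ratio of -2.56 (-3.19 to -1.97). The Krüppel-like factors Klf4 and Klf6 were at -1.61 and -1.40, and Ier2, a small nuclear early-response protein, at -1.44. Klf10, a factor induced by TGF-β, at -0.13 (-0.37 to 0.11), and Ier5, at 0.07 (-0.08 to 0.22), were the exceptions that were well counted, at 279 against 305 and 780 against 743 UMIs, and whose intervals held 0.

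Genes that restrain the response were low with it. Of the 17 feedback inhibitors, all measured, 15 were below the comparison cells and 13 had intervals below 0, at a median of -1.10. Of the 12 with at least 50 UMIs, 8 were at least 1.5-fold lower and none higher, where 5.59% of all such genes were lower. Zfp36, which destabilizes short-lived messengers, was at 38.5 CPM in the selected and 167 CPM in the comparison cells, a log2 ratio of -2.12 (-2.40 to -1.84). Dusp1, the phosphatase that switches off p38 and JNK, was at 102 and 332 CPM, a ratio of -1.70 (-1.88 to -1.52). Btg2, an antiproliferative early-response gene, was at -1.27. Socs3, the feedback inhibitor of JAK and STAT signalling, was nearly absent from the selected cells, with 3 UMIs against 28 and a log2 ratio of -3.22 (-5.58 to -1.53). Nfkbia and Ier3, both NF-κB targets, were at -0.01 each, with intervals of -0.20 to 0.18 and -0.25 to 0.22. Tnfaip3, the NF-κB inhibitor A20, was the one list member with an interval above 0, at 26 against 11 UMIs. Hbegf, an EGF family ligand released from the cell surface, fell with the early-response genes, at 61.5 against 223 CPM and a log2 ratio of -1.86 (-2.09 to -1.63). Its relatives Areg and Ereg went the other way, at 0.70 and 0.89.

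**Figure D2:**
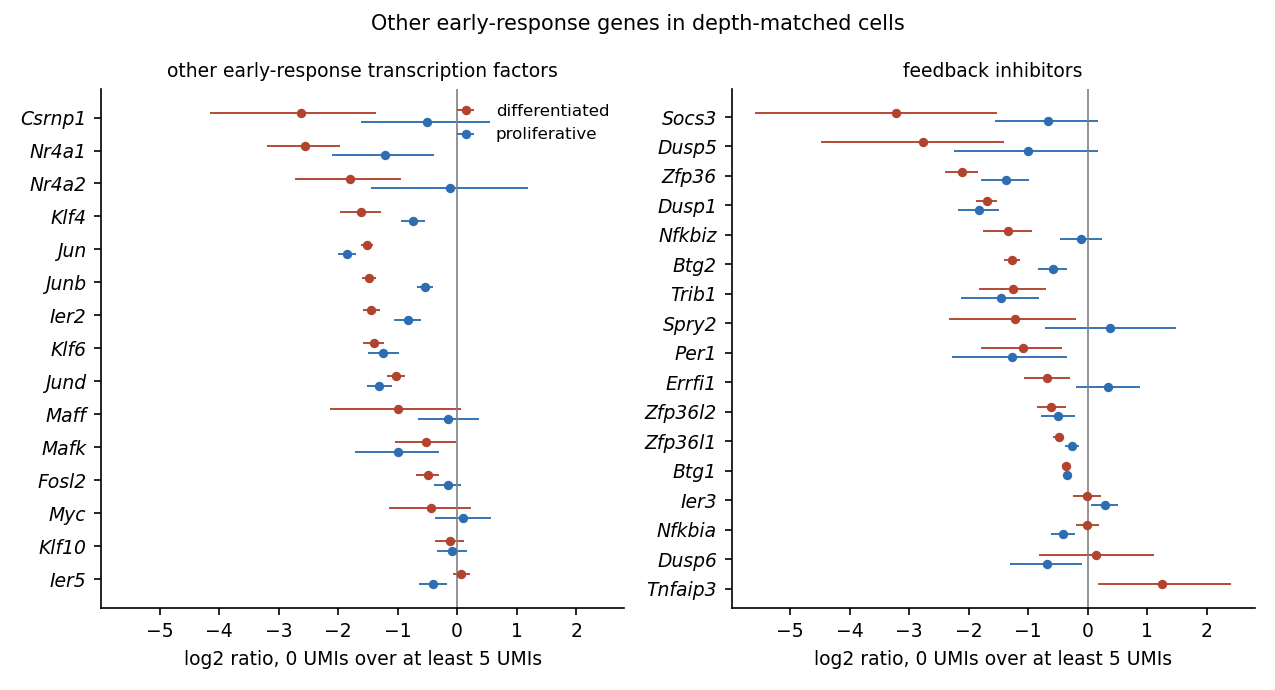
Log2 ratio of summed CPM, cells with 0 UMIs of the 4 selecting genes over depth-matched cells with at least 5, for each measured early-response transcription factor (left) and feedback inhibitor (right); points are differentiated (965 cells per set) and proliferative (605 per set) organoids and bars are 95% counting intervals. Differentiated values run from -2.62 for Csrnp1 to 0.07 for Ier5 on the left, and most proliferative values lie nearer to 0.

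Stress genes did not move as 1 block. Gadd45b, a growth-arrest gene on chromosome 10 (80930073 to 80932204, plus strand) that is itself inducible by stress and TGF-β, was higher in the cells without early-response transcripts, at 212 against 63.3 CPM and a log2 ratio of 1.75 (1.52 to 1.97). It was found in 39.6% of selected and 15.9% of comparison cells. Ppp1r15a, the phosphatase subunit that ends the integrated stress response, was at -0.98 (-1.35 to -0.61). The median of the 8 measured genes of that stress list was 0.31. The 12 heat shock genes had a median of 0.03. Hspa1a and Hspa1b, the most heat-inducible HSP70 genes, were at 0.10 (-0.40 to 0.61) and 0.00 (-0.19 to 0.19). Only Dnajb1, an HSP40 co-chaperone, was at least 1.5-fold lower within that list, at -1.08. Mitochondrial transcripts were level between the sets, with a median of 0.02 over 8 genes. Xenobiotic enzymes were split, with Cyp2f2 at -1.10 and Gstm1 at -0.59 but Gsto1 at 0.81.

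Uroplakins and simple-epithelial keratins were higher in the cells without early-response transcripts. All 5 uroplakins had intervals above 0, and 3 were at least 1.5-fold higher, where 4.74% of all genes with at least 50 UMIs were. Their median log2 ratio was 1.48, and their summed level was 5460 against 2343 UMIs, a log2 ratio of 1.22 (1.15 to 1.29). Upk3a (chromosome 15, 85017141 to 85022547, plus strand), which pairs with Upk1b in the apical plaque, was at 539 CPM in the selected and 107 CPM in the comparison cells, a log2 ratio of 2.33 (2.17 to 2.50). Upk1b was at 535 and 191 CPM, a ratio of 1.48, while Upk1a, the partner of Upk2, was at 480 and 360 CPM, a ratio of only 0.42. Over the 5 genes together, the cells differed in amount more than in how many held any. A uroplakin UMI was found in 56.2% of the selected cells and 56.0% of the comparison cells, but 10 or more were found in 17.4% (15.1 to 19.95%) and 5.49% (4.14 to 7.12%). The simple-epithelial keratins Krt18 and Krt8 were at 1.15 and 0.92. Krt19, Krt7 and Krt4 lay between 0.06 and 0.24, and Krt13 was at -0.04 (-0.45 to 0.37). Without matching on depth the summed uroplakin ratio was 0.70.

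Basal genes as a list were close to level, at a summed log2 ratio of -0.11 (-0.13 to -0.09), and none of the 8 reached 1.5-fold. Without matching the summed ratio was 0.0069. Within the list the keratins differed in sign. Krt14 was higher in the selected cells, at 4917 against 3339 CPM, and Krt5 and Krt15 were lower, at -0.25 and -0.41. The basal regulator Trp63 was at -0.41 (-0.66 to -0.15). The 10 urothelial transcription factors had a median of -0.09, with 4 intervals below 0 and 1 above. The 4 were those of Klf5 at -0.59, Foxq1 at -0.53, Gata3 at -0.39 and the pioneer factor Foxa1 at -0.32 (-0.52 to -0.12). The exception was Hopx, an atypical homeodomain protein, at 279 and 87.0 CPM, a ratio of 1.68 (1.49 to 1.88). Genes of the Notch list had a median of -0.44 over 8 genes. The list included Hes1 (chromosome 16, 30064384 to 30067796, plus strand), the Notch target and transcriptional repressor, at 794 against 1498 CPM and a log2 ratio of -0.92 (-0.98 to -0.85). The receptors Notch1 and Notch3 were at -0.58 and -0.56, and Nrarp, another Notch target, at 0.02 (-0.23 to 0.27). The ligand Dll1 went the other way, at 39 against 15 UMIs and a ratio of 1.38 (0.49 to 2.34).

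Contractile genes formed the other high group. All 6 measured genes of 8 were at least 1.5-fold higher, at a median of 1.40. Acta2, smooth muscle actin, ranked highest among genes reaching 100 UMIs in all, at 97.4 against 9.46 CPM and a log2 ratio of 3.36 (2.84 to 3.93), but it was carried by few cells. It was found in 6.94% of selected and 1.97% of comparison cells, and the top 48 of the 965 selected cells held 94.2% of its UMIs. Myl9, the regulatory light chain of myosin, had 48 UMIs against 2, a ratio of 4.59 with an interval of 2.65 to 7.67. Tpm1 and Tpm2, tropomyosins found in many more cells, were at 0.97 and 0.63, and the actin-binding protein Cald1 at 1.64.

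**Figure D3:**
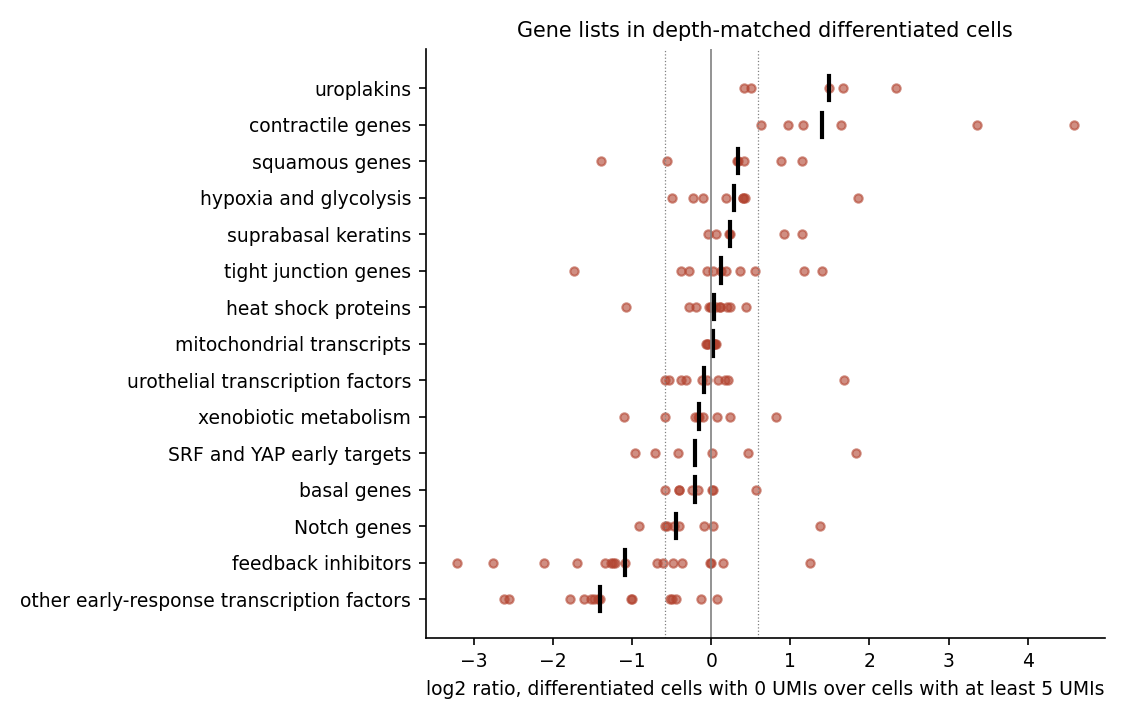
Log2 ratio of each measured gene (points) and list median (black bars), differentiated cells with 0 UMIs over depth-matched cells with at least 5, for 15 gene lists; dotted lines mark 1.5-fold. Uroplakins (median 1.48) and contractile genes (1.40) lie to the right, and other early-response transcription factors (-1.40) and feedback inhibitors (-1.10) to the left.

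Most of the remaining lists had members in both directions, and the medians of the SRF and YAP, squamous, tight junction, hypoxia, cytokine and Wnt lists each changed sign within at least 1 of the clusters described below. The 6 early targets of SRF and YAP had a median of -0.21, with the matricellular genes Ctgf and Cyr61 at -0.97 and -0.72 and Ankrd1, a muscle-type repeat protein, at 39 against 11 UMIs. Squamous genes had a median of 0.34 over 7 genes, with Sprr1a, a cornified envelope precursor, at 1.14 and Krt1, a keratin of cornifying epithelium, at -1.40. Among the 11 tight junction genes, whose median was 0.12, the claudins Cldn3 and Cldn23 were at 1.40 and 1.17. Hypoxia and glycolysis genes had a median of 0.29 over 8 genes, led by the prolyl hydroxylase Egln3 at 1.86. Cytokines and chemokines had a median of 0.31 over 6 genes, with the membrane-bound chemokine Cxcl16 at 0.98. The 6 Wnt genes had a median of 0.10, and the 3 measured nuclear long noncoding RNAs were all lower, with Neat1, the scaffold of paraspeckles, at -0.63, Kcnq1ot1, an imprinted antisense RNA, at -0.40 and Malat1 at -0.11.

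Genes outside the lists followed both directions. Of the 15 genes with the lowest ratios, 9 belonged to the early-response, feedback and EGF ligand lists. The rest were Crybb3, a crystallin, at -2.34, Tspan1, a tetraspanin, at -1.62, Tiparp, a target of the aryl hydrocarbon receptor, at -1.60, the olfactory receptor gene Olfr890 at -1.60, and the predicted genes Gm12840 and Gm26532 at -1.74 and -1.72. Among the 15 highest, Clu (chromosome 14, 65968483 to 65981547, plus strand), which encodes the secreted chaperone clusterin, was the most abundant, at 2185 against 523 CPM and a log2 ratio of 2.06 (1.99 to 2.14). It was found in 75.6% of selected and 47.5% of comparison cells, so it was widely spread. Ltf, the iron-binding lactotransferrin, was at 2.84, carried by 6.94% of selected and 1.24% of comparison cells, but stood at -0.18 (-0.86 to 0.49) when matched within the uroplakin-rich cluster 2 described below. Krt17 and Krt16, keratins of activated epithelia, were at 2.27 and 1.76. Htra1, a secreted serine protease, was at 2.22 over all cells and 0.48 (-0.79 to 1.82) within cluster 0, and Serpinb6b, a protease inhibitor, at 2.05. Fn1, fibronectin, Tuba1a, a tubulin, and Ppbp, a platelet-type chemokine, were at 1.94, 1.86 and 1.98. Fdps, an enzyme of sterol synthesis, was at 1.73, and Kctd14 and Phgr1 at 1.96 and 1.89, the latter at 0.16 (-0.86 to 1.19) within cluster 0.

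Over 4 classes of cells with 0, 1 to 4, 5 to 14 and 15 or more early-response UMIs, matched at 112 cells each and therefore deeper than most (median 6041 UMIs in the class with 0), most of these levels moved by steps. Jun stood at 252, 385, 679 and 910 CPM, and Zfp36 at 31.3, 61.0, 122 and 200 CPM. Hes1 stood at 706, 1045, 1368 and 1527 CPM. In the opposite direction, Clu stood at 2384, 2007, 985 and 453 CPM, and Gadd45b at 246, 179, 106 and 50.5 CPM. Summed uroplakins had overlapping intervals in the first 2 classes, at 2077 CPM (1974 to 2183 CPM) and 2156 CPM (2051 to 2264 CPM), and stood at 1170 and 713 CPM in the others. In these deeper cells the uroplakin difference thus lay between cells with up to 4 and cells with 5 or more early-response UMIs. Heat shock genes stood between 5127 and 5561 CPM in all 4 classes.

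**Figure D4:**
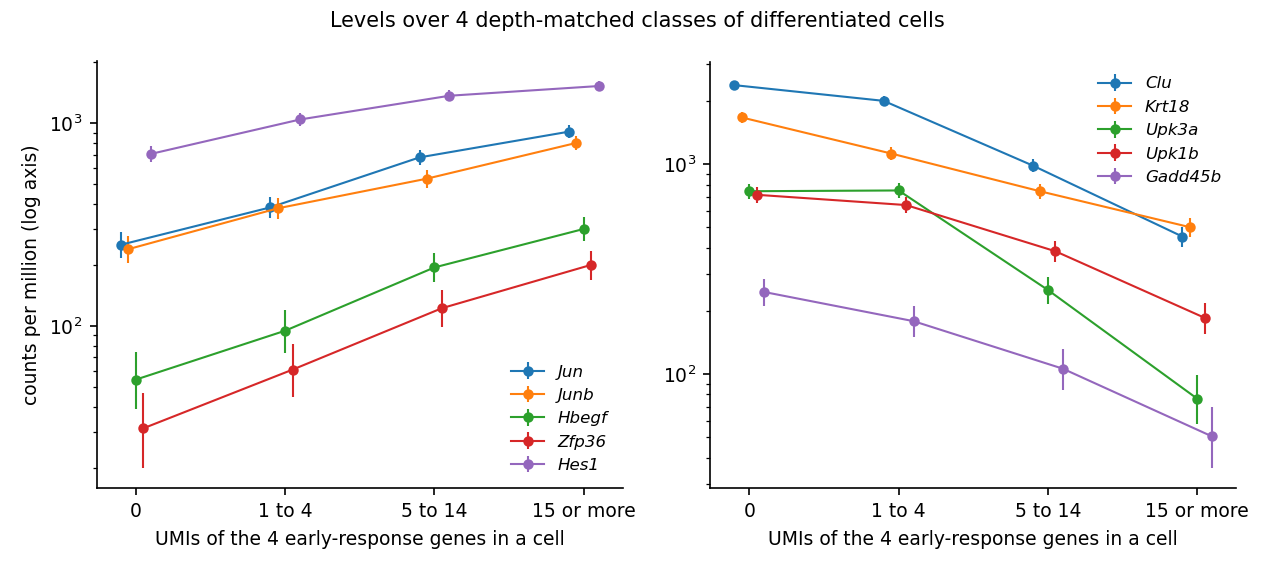
CPM (log axis) of 10 genes in 4 classes of differentiated cells by UMIs of the 4 selecting genes, 112 depth-matched cells per class; bars are exact Poisson 95% intervals. The 5 genes on the left rise over the classes, Jun from 252 to 910; on the right Clu falls from 2384 to 453, while Upk3a is level over the first 2 classes (744 and 751) and falls to 76.4.

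Cell state and early-response transcripts were tied at equal depth. Among thinned cells with 10 or more uroplakin UMIs, 53.8% of 260 cells (47.6 to 60.0%) held no early-response UMI and 1.15% (0.24 to 3.33%) held at least 5. Among thinned cells without a uroplakin UMI these shares were 27.5% and 17.6% of 2051 cells. Cells with 10 or more UMIs of the contractile genes resembled the uroplakin-rich cells in this respect, at 54.6% of 185 cells (47.1 to 61.9%) and 4.32%, against 27.1% and 16.4% of 3290 cells with at most 2. The level of the 4 genes was 363 CPM in the uroplakin-rich and 466 CPM in the contractile-rich thinned cells.

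The kept differentiated cells were then clustered without the early-response, stress, heat shock, ligand and cytokine lists among the variable features. The 1018 selected cells fell into all 4 clusters. Cluster 0, led by Reg1 and Tspan1, held 334 of them, cluster 1, led by Acta2 and Htra1 with 6 of 8 basal markers raised, 328, cluster 2, led by Ifit1bl1 and Ubd and holding Upk3a and Upk3b among its 10 leading genes, 259, and cluster 3, led by Krt1 and Bbox1 with 6 of 8 basal markers raised as well, 97. At equal depth the share without early-response UMIs was 41.8% (38.7 to 44.9%) in cluster 2 and 34.7% (31.7 to 37.8%) in cluster 1. It was 24.4% (22.4 to 26.4%) in cluster 0 and 17.9% (15.05 to 21.1%) in cluster 3. Uroplakin UMIs were found in 90.0% of thinned cells of cluster 2 and 10.9% of those of cluster 1, and the median depths before thinning were 5422 and 2678 UMIs. With the early-response lists kept among the features the uroplakin-rich cluster was smaller, at 668 cells, and 53.1% of its thinned cells held no early-response UMI.

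**Figure D5:**
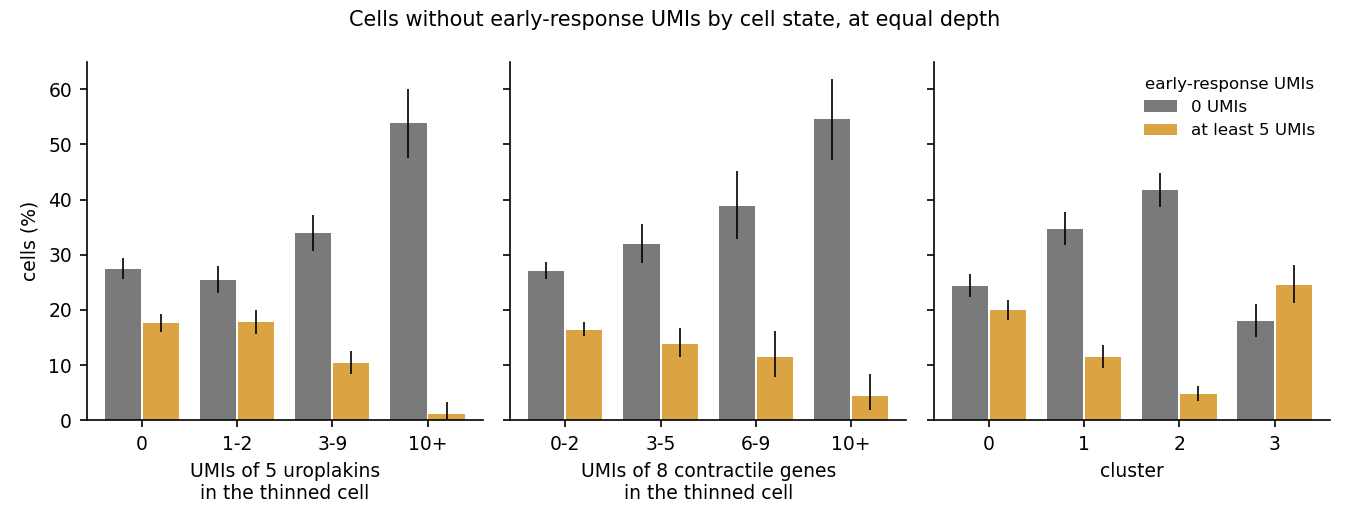
Share of differentiated cells (%) with 0 (grey) and with at least 5 (yellow) early-response UMIs after thinning to 2100 UMIs, by UMIs of the 5 uroplakins, by UMIs of the 8 contractile genes and by cluster; bars are exact binomial 95% intervals. Grey bars rise to 53.8% and 54.6% in the cells richest in uroplakins and contractile genes, and cluster 3 alone has more cells with at least 5 UMIs (24.6%) than with none (17.9%).

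Matched within clusters, the early-response genes were low in every cluster, and the differences in markers of cell state varied between clusters. The median of the other early-response transcription factors was -1.30 in cluster 0 (312 cells per set), -1.35 in cluster 1 (217 per set), -0.92 in cluster 2 (81 per set) and -1.38 in cluster 3 (96 per set). The summed uroplakin ratio, 1.22 over all cells, was 0.39 (0.26 to 0.53) in cluster 0 and 0.93 (0.82 to 1.05) in cluster 2. In clusters 1 and 3, where uroplakins were scarce, it was -0.12 (-0.75 to 0.51) and -0.76 (-1.57 to 0.02). Single uroplakins differed within clusters. Upk1a had intervals below 0 in 3 clusters and above 0 in cluster 2 alone, with ratios between -1.35 and 0.31. Upk1b was above 0 in all 4 clusters, with intervals above 0 in 2. Suprabasal keratins, at a median of 0.23 over all cells, were at 0.83 in cluster 2 and between 0.09 and 0.16 in the others. All 8 basal genes were below 0 in cluster 2, at a summed ratio of -0.25, against 0.05, -0.04 and 0.01 in clusters 0, 1 and 3. The sign in the uroplakin-rich cluster depended on the clustering. With the early-response lists kept among the features, its summed basal ratio was 0.24 (0.17 to 0.31) at 54 cells per set, with 1 of 6 measured genes below 0. Contractile genes, at 1.03 summed over all cells, were at 0.24, 0.43 and 0.55 in clusters 0, 2 and 3 and at 0.89 (0.80 to 0.98) in cluster 1, the single cluster in which Acta2 reached 20 UMIs, at 236 against 40. Of 97 list and leading genes with at least 20 UMIs in all 4 clusters, 20 had intervals below 0 in each and 3 had intervals above 0 in each. The leading genes among them had been picked for their ratios over all cells. Of all 3345 genes so measured, 35 (1.05%) had intervals below 0 in each cluster and 16 (0.478%) above. The 3 were Clu, between 0.998 and 2.09, Gadd45b, between 1.07 and 1.58, and Tpm2, between 0.43 and 0.90. The 20 included Jun, Junb, Dusp1 and Zfp36. Hes1 was among them, between -0.78 and -0.61, and so were Klf5, between -0.58 and -0.45, Cyp2f2, Gstm1 and Wnt4.

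The same rule applied to the proliferative library, which the choice of members had not used, gave 2715 cells with 0 UMIs, 39.8% of 6818, and 730 with at least 5. After matching, at 605 cells each, 347 of 7204 genes (4.82%) were at least 1.5-fold lower in the cells without early-response UMIs and 334 (4.64%) higher. The median of the other early-response transcription factors was -0.64 over 16 genes and that of feedback inhibitors -0.54 over 16. Jun was at -1.85, Dusp1 at -1.83 and Junb at -0.54, beside -1.52, -1.70 and -1.48 in D, and the difference between the libraries was not tested. Hes1 was at -0.92 in both libraries. Clu was at 1.38, Krt17 at 2.20, Hopx at 1.12 and Cald1 at 1.34. Other genes that were high in D were nearer to level in P. Gadd45b was at 0.38 (0.06 to 0.71), Serpinb6b at 0.39 (-0.39 to 1.19) and Kctd14 at -0.13 (-0.90 to 0.62). Uroplakins were too scarce for more than Upk1a and Upk1b to be measured, at 0.47 (-0.20 to 1.15) and 0.73 (-0.005 to 1.49). Krt8 and Krt18, which were higher in D, were at -0.12 (-0.28 to 0.05) and 0.01 (-0.10 to 0.12) in P. The 6 measured suprabasal keratins had a median of 0.03 in P, with 2 below 0 and 4 above. Of 12 proliferation genes, 11 were measured in P, with a median of 1.29 and a summed ratio of 1.15 (0.98 to 1.33). Only 3 were measured in D, with a median of -0.81. The summed ratio of the list in D was -0.41 (-0.80 to -0.02), on 98 against 130 UMIs. Matched within D cluster 1, where 6 of 8 proliferating markers were raised, the summed ratio was 1.42 (0.61 to 2.29), with 1 gene reaching 20 UMIs. In clusters 0, 2 and 3 it was -0.61, 0.0008 and -0.58, with intervals that held 0. Among the 6968 genes measured in both libraries, 68 were called lower in both, 23.0% of the D list and 20.7% of the P list, where 4.25% and 4.72% of these genes were called lower in each library. For genes called higher the overlap was 55, 22.8% of the D list and 21.2% of the P list, beside 3.46% and 3.72%. In both libraries the cells had been chosen on UMIs of the same 4 genes, so the overlap is a description and not a test.

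Markers of other cell types were scarce, and doublet scores differed with the selection. Of the fibroblast markers only Dcn was measured in the matched D cells, at 164 against 213 UMIs, a log2 ratio of -0.38 (-0.68 to -0.08), and of the leukocyte markers Laptm5 and Cd68, at 50 against 59 and 20 against 29. Of the selected cells, 2.36% (1.52 to 3.49%) were among the highest 6% of doublet scores, against 5.42% of cells with 1 to 4 UMIs, 7.79% (6.55 to 9.17%) of those with at least 5 and 12% of those with 15 or more, all before matching. Leaving these cells out gave a uroplakin ratio of 1.35. Malat1, a nuclear RNA, took 6.02% of UMIs in the selected and 6.48% in the comparison cells, and ribosomal protein genes 20.7% and 21.9%. The part of these values in the differences was not tested.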

How the data were processed

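Single-cell RNA sequencing of urothelial organoids was analysed from the UMI count matrices as deposited. The authors converted reads with bcl2fastq 2.19.0 and made the counts per gene and barcode with Cell Ranger 3.0.2 on GRCm38/mm10; the deposited counts were neither normalized nor filtered on mitochondrial content. Reads from genes that overlap or are near-identical copies can be assigned to either, so values of predicted genes are uncertain. Barcodes with over 800 genes and at most 12% mitochondrial UMIs were kept. Cells with 0 and with at least 5 UMIs of Fos, Fosb, Egr1 and Atf3 were matched 1 to 1 in bins of 0.1 log2 units of total UMIs by a seeded pick. UMIs were summed per set and scaled to counts per 1000000. Levels carry exact Poisson, shares exact binomial (Clopper-Pearson) and ratios exact conditional binomial 95% intervals. These cover counting error only and treat UMIs as independent, which cells of unlike state are not. With 1 library per condition no test was run.

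The members and gene lists were chosen with earlier results of these data known. Genes were named if they chose the cells, belonged to a list and had at least 20 UMIs over both sets, or were among the 15 largest log2 ratios in each direction at 100 UMIs or more (0.5 UMI added for ranking). Leading genes of clusters fall outside that rule. Calls of 1.5-fold used genes with at least 50 UMIs. The glycolysis gene Aldoa, whose symbol is repeated in the matrices, was left out. Clustering used Seurat 5.3.0 in R 4.3.3 (2000 variable features without 87 early-response and stress genes, 21 principal components, resolution 0.2). Doublets were not removed; Scrublet scores (scanpy 1.11.5) served for an alternative, and 1.27% of kept D cells passed its threshold of 0.25. Classes by uroplakin and contractile UMIs of thinned cells were chosen after seeing the data. Other steps used Python 3.11.15 and scipy 1.17.1. The calculation of ratios was checked on simulated summed counts, drawn independently for each gene. That check simulated neither single cells nor the matching.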

Additional observations from a re-analysis of the deposited data

Results flagged for a closer look

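For 3 genes of the lists, the cells without early-response UMIs differed from depth-matched cells in opposite directions in the 2 libraries, at least 1.5-fold in each. Each library is 1 sample, so the difference was not tested. Krt1, a keratin of cornifying epithelium, was at 69 against 182 UMIs in D (log2 ratio -1.40) and 58 against 33 in P (0.82), a difference of 2.22 between the libraries. Cldn3, a tight junction claudin, was at 200 against 76 UMIs in D (1.40) and 28 against 51 in P (-0.86), a difference of -2.26. Cxcl2, a neutrophil chemokine, was at 78 against 45 UMIs in D (0.79) and 41 against 78 in P (-0.92), a difference of -1.72. Matched within the D clusters, Cxcl2 reached 20 UMIs in cluster 2 alone, at 20 against 40, with an interval of -1.85 to -0.19 and thus the same direction as in P. Krt1 was at 19 UMIs in each set of cluster 0 and at 44 against 57 in cluster 3, a ratio of -0.37 (-0.97 to 0.22). Cldn3 was at 33 UMIs in each set of cluster 0 and at 60 against 30 in cluster 2, with an interval of 0.35 to 1.68. Of 155 list genes measured in both libraries, 14 had counting intervals on opposite sides of 0.

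Early-response transcripts were also counted in barcodes that the filter leaves out. The 2079 left-out D barcodes held 2699 UMIs of the 4 genes, or 1303 per 1000000 non-mitochondrial UMIs (1254 to 1353), against 1119 (1104 to 1134) in the kept D cells. In P the left-out barcodes were at 426 and the kept cells at 469 per 1000000.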

How the results depend on the processing

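No paired analysis was possible because each condition was 1 library. Among the recomputed summary values, 93 kept their direction and size, 44 moved and 5 changed sign; the cause of each move was not tested beyond what the setting itself changes. The share of cells without early-response UMIs was 22.8% under a looser cell filter, 28.4% over all deposited barcodes, 29.7% after thinning, 34.2% with Fos alone, and 3.45% when Jun, Junb and Ier2 were added to the 4 genes. The summed uroplakin ratio was 0.70 without matching, 1.10 matched also on mitochondrial share, 1.83 against cells with at least 10 UMIs, 1.06 against at least 3, 1.61 with thinned counts, 1.33 under the looser filter and 1.35 without high doublet scores. Within clusters 0 to 3 it was 0.39, -0.12, 0.93 and -0.76, so it changed sign in clusters 1 and 3. The basal ratio was 0.0069 without matching, -0.086 matched on mitochondrial share, -0.17 against at least 10 UMIs, -0.15 thinned, -0.086 under median ratio scaling, -0.13 without mitochondrial and ribosomal protein genes and -0.13 under the looser filter. Within clusters 0 to 3 it was 0.049, -0.036, -0.25 and 0.012. Hes1 was at -0.82 without matching, -1.07 against at least 10 UMIs, and -0.78, -0.77, -0.77 and -0.61 within clusters 0 to 3. Lower genes numbered 772 of 10214 at a minimum of 20 UMIs, 265 of 6547 at 100 and 86 of 8531 at 2-fold. Within clusters 0 to 3, where fewer cells and genes enter, they numbered 299 of 4745, 336 of 3773, 261 of 2808 and 81 of 1309. Higher genes numbered 693, 244 and 115 of the same totals under these minimums and fold, and 212, 184, 199 and 83 within clusters 0 to 3. The median of the other early-response transcription factors was -0.92 within cluster 2, and in P it was -0.90 without high doublet scores. With early-response lists among the features, 53.1% of the uroplakin-rich cluster held none. Among the 30 leading genes, Ltf alone changed sign, at -0.18 within cluster 2. Of 310 recomputed medians of the other lists, 26 lay on the other side of 0, from 11 of 18 lists and 16 of them within a cluster, all of lists whose median was under 1.5-fold. They included SRF and YAP targets at 0.45 and squamous genes at -0.49 within cluster 1, and Wnt genes at -0.49 within cluster 2. The alternatives in P, the second division of UMIs (-2.67) and the second pick of the 4 classes were chosen after seeing the data. Genes under 20 UMIs over both sets were not described at this depth.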

Other observations

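Genes of sterol synthesis were higher in the cells without early-response transcripts. This list of 19 enzymes and regulators was written after the values had been seen, so its direction is not independent evidence. In D, 18 of 19 measured genes were above the comparison cells, 16 with intervals above 0, at a median log2 ratio of 0.89. Of the 18 with at least 50 UMIs, 14 were at least 1.5-fold higher and none lower. Idi1, isopentenyl diphosphate isomerase, was at 50.9 against 19.8 CPM, a ratio of 1.36 (0.95 to 1.79). Hmgcs1, the enzyme that commits acetyl units to the pathway, was at 281 against 141 UMIs, and Msmo1, a sterol oxidase, at a ratio of 1.04 (0.76 to 1.34). In P the median was 0.36, with 16 of 19 genes above the comparison cells and 8 with intervals above 0, and Sqle, squalene epoxidase, was at 1.52 (0.97 to 2.10).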
